A study of Mus musculus with 4 samples.

Results

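Atf4 and 9 genes of the stress response that it takes part in were followed through the mouse islet cells of the series. The members were chosen by gene symbol, and all 10 were present among the 21594 genes of the 4 deposited matrices. They are the transcription factors Atf4, Atf5, Atf3, Ddit3 and Cebpg, and the response genes Trib3, Nupr1, Chac1, Sesn2 and Eif4ebp1.

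The integrated stress response lets a cell slow its protein synthesis while it repairs the cause. Kinases that sense unfolded protein, amino acid shortage, viral RNA or low heme phosphorylate the initiation factor eIF2 alpha, general translation falls, and the messenger RNA of Atf4 is translated more. Atf4 then pairs with other bZIP proteins, such as those of the C/EBP family, and switches on genes of amino acid uptake, amino acid synthesis and tRNA charging, together with brakes on the response itself. Beta cells make very large amounts of proinsulin and depend on this pathway, above all on the kinase PERK. Since Atf4 is controlled largely at translation, its messenger RNA counts are not a measure of its protein.

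RNA was counted in single cells of dissociated pancreatic islets from 2-month-old mice. The 2 mutant samples carried Atf4F/F together with Ins1Cre, and the 2 control samples carried Atf4F/F without the Cre, so that floxed Atf4 alleles were present in every sample. Ins1Cre is driven from the insulin 1 gene and acts in beta cells, and no sample carried the Cre with an intact Atf4 gene, so the driver and the loss of Atf4 cannot be told apart. Islets of several mice were pooled for every sample. The design text puts each pool at 2 males and 2 females, whereas the protocol for extraction speaks of 3 to 4 mice. Beta cells with and without a tdT reporter were sequenced together. The part of Atf4 that the floxed alleles remove is not given in the sources used here, so that a remaining Atf4 count need not be a working transcript.

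Short stretches of promoter are shown first for Atf3, Nupr1 and Chac1, the members whose upstream window held the letters TGATGNAA. This is a form of the CARE element (C/EBP and Atf4 response element), which Atf4 dimers bind. The windows are the 250 bases before the annotated start (RefSeq, GRCm38.p6), in the direction of the gene. They lie at chr1:191183334-191183583 on the minus strand for Atf3, at chr7:126625471-126625720 on the minus strand for Nupr1 and at chr2:119350992-119351241 on the plus strand for Chac1. Capitals mark matches on either strand to TGATGNAA and to a second form, TGACGNAA, and no capital stretch belongs to both.
Atf3: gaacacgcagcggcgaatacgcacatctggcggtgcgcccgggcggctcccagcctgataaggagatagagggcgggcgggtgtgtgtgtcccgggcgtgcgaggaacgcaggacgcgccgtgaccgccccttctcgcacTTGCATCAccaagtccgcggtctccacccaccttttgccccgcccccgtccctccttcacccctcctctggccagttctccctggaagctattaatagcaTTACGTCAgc
Nupr1: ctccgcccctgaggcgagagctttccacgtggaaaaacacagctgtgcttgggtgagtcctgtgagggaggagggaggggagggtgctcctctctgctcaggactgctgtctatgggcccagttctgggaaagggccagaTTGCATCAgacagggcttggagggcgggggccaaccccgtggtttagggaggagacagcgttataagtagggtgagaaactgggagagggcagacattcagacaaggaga
Chac1: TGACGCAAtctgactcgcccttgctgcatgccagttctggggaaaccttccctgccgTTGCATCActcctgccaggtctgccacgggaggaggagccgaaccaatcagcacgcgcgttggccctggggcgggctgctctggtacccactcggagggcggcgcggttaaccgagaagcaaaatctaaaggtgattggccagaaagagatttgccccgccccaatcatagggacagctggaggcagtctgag
All 3 matches to TGATGNAA read TTGCATCA along the gene and begin 110 bases before the start in Atf3 and Nupr1 and 193 bases before it in Chac1. The second form lay 10 bases before the start in Atf3, as TTACGTCA, and 250 bases before it in Chac1, as TGACGCAA. Among the 32851 windows of the table, 3.45% held TGATGNAA and 1.39% held TGACGNAA. Of the 9 members with a window, 3 held the first form and 2 the second. A match is a description of the letters and not a shown binding site.

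Of 11114 barcodes, 6995 were kept, with medians of 5186 to 5787 unique molecular identifiers (UMIs, the count of captured transcripts) per cell in the 4 samples. Among kept cells 162 barcodes occurred in more than 1 library. Cells were sorted into classes by their hormone counts: 3811 beta (insulin), 738 alpha (glucagon), 279 delta (somatostatin) and 105 PP (pancreatic polypeptide) cells, besides 112 endothelial and 66 macrophage cells by marker genes. A further 1824 barcodes carried mixed hormones and stayed out. The beta and alpha classes carried the other markers of their type. In beta cells 8 beta markers summed to 57535 to 63602 counts per 1000000 (CPM), and in alpha cells to 2588 to 3472. The 8 alpha markers summed to 26029 to 28400 CPM in alpha cells and 4408 to 5004 in beta cells. Delta and PP cells were less distinct. Delta cells held 8 delta markers at 4187 to 6053 CPM, but also the beta markers at 16829 to 24825 CPM. They held 8 PP markers at 33370 to 39041 CPM, beside 114508 to 131827 CPM in PP cells. Some other markers moved with the groups. The 14 acinar markers summed to 130 and 229 CPM in control beta cells and to 35.3 and 48.3 CPM in mutant beta cells, with at most 1 of them at 0. The 10 endothelial markers summed to 63.0 and 49.5 CPM in control alpha cells and to 209 and 199 CPM in mutant alpha cells, with at most 2 at 0. The part of these cells' RNA in the results was not tested. One library stood apart: the beta cells of mutant 2 kept part of their Atf4 counts, as given below.

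Among the cell types of the controls, Atf5, Trib3, Nupr1, Chac1 and Eif4ebp1 were higher in beta than in alpha cells of both controls, and Atf3 was higher in alpha cells. Of these 5, Atf5 alone had the counts for a test against delta, PP and endothelial cells. Levels in this comparison are CPM scaled by TMM (a factor that evens out composition between sums) over the sums of all classes and samples. Levels are compared within a gene and not between genes.

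Atf4 (chr15:80255184-80257541, plus strand) stood at 457 and 481 CPM in the beta cells of controls 1 and 2. Its alpha cell levels were 430 and 328 CPM, its PP levels 407 and 363 CPM, and its endothelial levels 276 and 436 CPM. Delta cells were lowest of these classes, at 234 and 177 CPM. The delta level was below the beta level by edgeR's quasi-likelihood test (log2 difference -1.18 ± 0.20 SE, adjusted p 2.73e-05), in a contrast where 19.1% of all genes were called. The alpha, PP and endothelial levels, by the same edgeR fit, did not differ from beta cells at an adjusted p of 0.05 (adjusted p 0.105, 0.468 and 0.345). Macrophages gave 2 and 7 Atf4 UMIs, too few to place.

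Atf5 (chr7:44812256-44816658, minus strand) is a close relative of Atf4 that is translated under stress in a similar way and supports beta cell survival in mice. It reached 679 and 752 CPM in control beta cells, against 23.8 and 44.6 in alpha, 49.4 and 42.8 in delta, 37.7 and 48.4 in PP and 97.3 and 110 in endothelial cells. No other class came near the beta level. The log2 difference from beta cells was -4.38 ± 0.19 (SE) in alpha, -3.93 ± 0.25 in delta, -4.07 ± 0.28 in PP and -2.77 ± 0.26 in endothelial cells. Each passed edgeR's test (largest adjusted p 7.42e-11), where 35.7% of genes were called for alpha, 14.9% for PP and 47.5% for endothelial cells. Alpha, delta and PP cells did not differ from one another in Atf5 at that threshold (edgeR adjusted p 0.580 to 0.966). Alpha cell barcodes of the controls held Atf5 at 4.29% and 7.13% of the unscaled beta level, and 5 beta cell markers (Ins1, Ins2, Slc2a2, G6pc2 and Ucn3) at 1.51% to 3.48% in control 1 and 1.34% to 2.90% in control 2.

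Atf3 (chr1:191170296-191218039, minus strand), an immediate stress and injury factor, was higher in alpha and PP cells than in beta cells. It stood at 6.97 and 5.59 CPM in control beta cells and at 205 and 138 CPM in alpha cells. PP cells held 83.8 and 145 CPM from 20 and 12 UMIs, and macrophages held 569 and 763 CPM from 17 and 32 UMIs. Alpha cells were above beta cells by 4.75 ± 0.24 (log2, SE; edgeR adjusted p 1.02e-17) and PP cells by 3.97 ± 0.44 (edgeR adjusted p 1.63e-08). Delta cells held 8.99 and 26.8 CPM from 2 and 5 UMIs, and endothelial cells 16.2 and 26.0 CPM from 1 and 4 UMIs. Neither of these 2 classes passed against beta cells (edgeR adjusted p 0.178 and 0.0673). The macrophage class held 6 cells in control 1 and was not tested.

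The remaining members were at lower counts, so beta and alpha sums of the controls were also fitted on their own, an addition made after seeing the data, in which all 10 passed the filter on low counts. Of all genes 28% were called there, and 9 of the 10 members were, 8 lower in alpha cells and Atf3 higher. Nupr1 (chr7:126623249-126630861, minus strand), a small stress-induced chromatin protein, had 397 and 547 UMIs in beta cells against 1 and 2 in alpha cells (log2 difference -4.90 ± 0.41, edgeR adjusted p 2.24e-06). Trib3 (chr2:152337422-152344032, minus strand), a pseudokinase that restrains Atf4 and Akt signalling, had 109 and 163 UMIs against 1 and 0 (log2 difference -4.64 ± 0.79, edgeR adjusted p 0.000779). The beta sums of the controls were larger as a whole, at 11111773 and 11346980 UMIs against 840749 and 868400 in alpha cells. Scaled for this, Nupr1 was at 48.6 and 62.4 CPM in beta against 1.32 and 2.48 CPM in alpha cells. Trib3 was at 13.3 and 18.6 CPM against 1.32 and 0 CPM. Chac1 (chr2:119351229-119354381, plus strand), which breaks down glutathione, was lower in alpha cells by 2.70 ± 0.36 on the log2 scale (edgeR adjusted p 0.000118). Eif4ebp1 (chr8:27260329-27276674, plus strand), which codes for the translation repressor 4E-BP1, was lower there by 2.44 ± 0.35 (edgeR adjusted p 0.000205). In the smaller classes counting error was wide: 6 Eif4ebp1 UMIs in the PP cells of control 1 gave 25.2 CPM (exact Poisson 95% interval 9.23 to 54.8) beside 29.5 in its beta cells, and 3 Chac1 UMIs in the endothelial cells of control 2 gave 19.5 CPM (4.02 to 57.0) beside 40.8.

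Ddit3 (chr10:127290774-127296288, plus strand), the death-linked factor CHOP, was lower in alpha cells by 1.08 ± 0.27 (log2; edgeR adjusted p 0.00966), from 41.5 and 47.4 CPM in beta cells to 27.8 and 16.1 CPM. Cebpg (chr7:35046422-35056573, minus strand), a C/EBP partner of Atf4, was lower by 0.81 ± 0.17 (edgeR adjusted p 0.00324). Atf4 itself was lower by 0.37 ± 0.11 in this fit (edgeR adjusted p 0.0255), a call that the fit of all classes did not give. Without TMM scaling, Atf4 in alpha against beta cells was 387 against 336 CPM in control 1 and 305 against 372 in control 2. Its direction thus differed between the controls on that scale. Sesn2 (chr4:132492032-132510501, minus strand), an amino acid sensor that dampens mTORC1, did not pass between alpha and beta cells (0.41 ± 0.18 higher in alpha cells, edgeR adjusted p 0.119). In the fit of all classes it was lower in endothelial than in beta cells (-2.35 ± 0.79, edgeR adjusted p 0.0139). That contrast called 47.5% of genes, and each control had 1 endothelial Sesn2 UMI. Delta and PP cells did not differ from beta cells in Sesn2 (edgeR adjusted p 0.473 and 0.800). Atf5, Atf3, Ddit3, Cebpg and Sesn2 overlap other annotated genes (Il4i1 and Nup62 for Atf5, Mars for Ddit3, unnamed models for the others), and the strand setting of the counting is not given in the sources used here, so their counts may include a neighbour's reads.

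**Figure D1:**
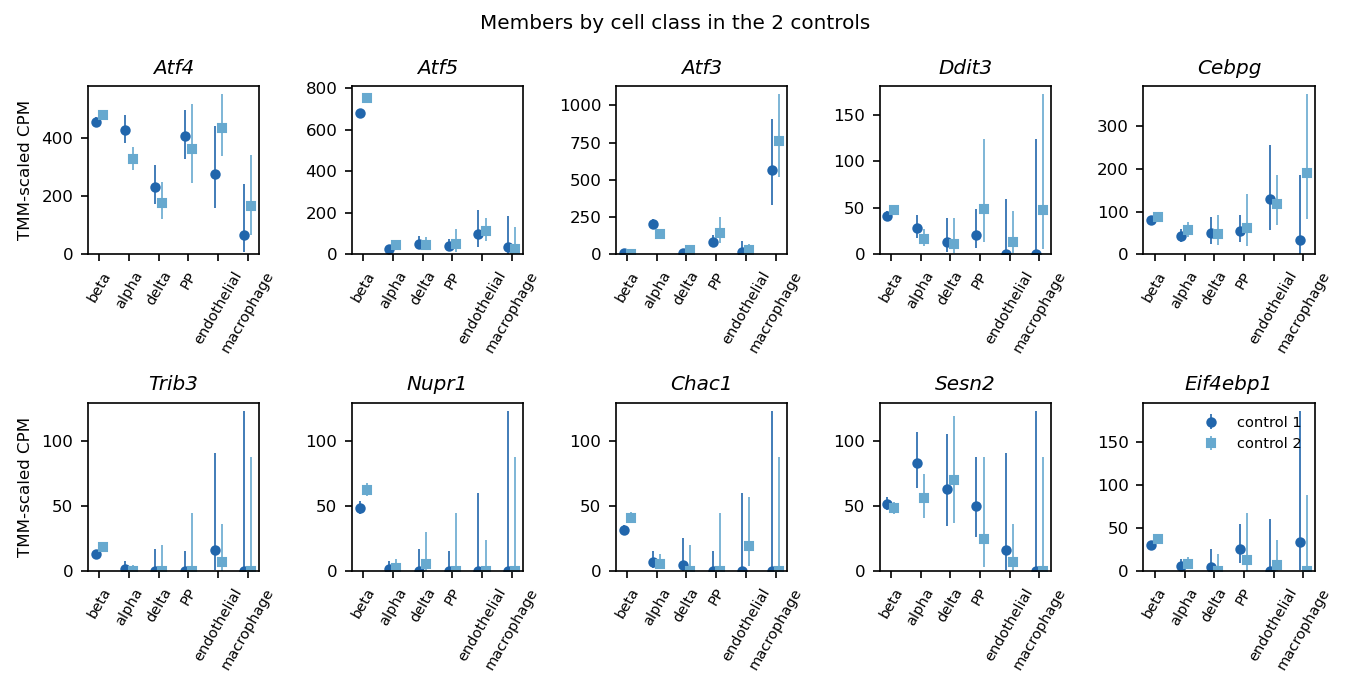
TMM-scaled CPM (linear axis, different in each panel) of the 10 members in 6 cell classes of controls 1 and 2, with exact Poisson 95% intervals that cover counting error only. Atf5, Nupr1, Trib3, Chac1 and Eif4ebp1 are higher in beta than in alpha cells, and Atf3 is at 6.97 and 5.59 CPM in beta cells and at 205 and 138 CPM in alpha cells.

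Genes whose levels followed Atf4 most closely over the 24 sums of class and sample were Eef2 (Pearson r = 0.569), Ier2 (0.565), Egr1 (0.543), Cdc42ep3 (0.520) and Rpl3 (0.515), among 7397 genes. These sums share libraries and differ in depth, and r is a description. They include the beta cells of the mutants, where Atf4 was at 2.98 CPM in mutant 1 and 152 CPM in mutant 2. The weight of these 2 sums in the ranking was not tested. No other member was among the 5.

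Loss of Atf4 was the question of the comparison between genotypes, and 6 other members had the same order as Atf4 across the beta cells of the 4 samples. Atf4, Atf5, Trib3, Nupr1, Chac1, Eif4ebp1 and, over a narrow range, Cebpg were each lowest in mutant 1, intermediate in mutant 2 and highest in both controls, while Atf3, Ddit3 and Sesn2 showed overlapping groups. None of the 10 passed an adjusted p of 0.05 over all 13431 genes in edgeR's test, where 0.737% of genes were called and 0.216% were called lower. At an unadjusted p of 0.05, 5 members were lower (6.92% of all genes were) and 0 were higher. DESeq2 and limma-voom also called 0 of the 10. The median log2 change of the 10 was -1.57, beside 0.00 for all genes tested. Levels in this section are CPM scaled over the beta sums alone and so differ from those above.

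Atf4 stood at 2.29 CPM in mutant 1 (22 UMIs), 120 in mutant 2, 364 in control 1 and 376 in control 2. Mutant 1 held almost none of the control level and mutant 2 an intermediate level, and the groups did not overlap. The log2 change was -2.60 ± 1.03 (SE; edgeR p 0.0335, adjusted p 0.307). In beta cells above 8000 UMIs, each thinned to 8000, an Atf4 UMI was found in 93.1% (exact 95% interval 90.5 to 95.1) and 88.9% (85.8 to 91.5) of the control cells. The share was 42.1% (37.5 to 46.8) in mutant 2 and 1.28% (0.418 to 2.97) in mutant 1.

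Atf5 followed, with 34.7 CPM in mutant 1, 262 in mutant 2, 540 in control 1 and 589 in control 2. The log2 change was -1.93 ± 0.67 (edgeR p 0.0182, adjusted p 0.248). The mutant 2 level lay between mutant 1 and both controls, and the groups did not overlap.

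Of the other regulators none passed the test. Atf3 was at 4.59 and 5.20 CPM in mutants against 5.55 and 4.38 in controls (log2 change -0.02 ± 0.26, edgeR adjusted p 0.987). Ddit3 stood at 35.0 and 44.0 CPM against 33.0 and 37.1 (0.17 ± 0.15, edgeR adjusted p 0.654). Cebpg was at 51.0 and 62.0 CPM against 64.0 and 68.3 (-0.23 ± 0.13), both mutants below both controls but with a gap smaller than the spread between the mutants. At this precision the changes of these 3 genes could not be told from 0.

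Among the response genes Trib3 stood at 0.313 CPM in mutant 1 (3 UMIs), 4.88 in mutant 2, 10.6 in control 1 and 14.6 in control 2. Its log2 change was -2.28 ± 0.65 (edgeR p 0.00655, adjusted p 0.176). Chac1 gave 0.938, 11.7, 25.0 and 32.0 CPM in the same order (-2.18 ± 0.62, edgeR p 0.00699, adjusted p 0.179). In both genes mutant 2 lay between mutant 1 and the controls.

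Nupr1 gave 0.313 CPM in mutant 1 (3 UMIs), 30.4 in mutant 2, 38.6 in control 1 and 48.8 in control 2 (-1.51 ± 0.88, edgeR p 0.119, adjusted p 0.481). Mutant 2 lay close to control 1. Eif4ebp1 gave 4.59, 12.4, 23.5 and 29.0 CPM and had the smallest p of the members (-1.63 ± 0.35, edgeR p 0.00118, adjusted p 0.0854). Sesn2, also an Atf4 target, was at 31.1, 39.4, 40.9 and 37.9 CPM, with overlapping groups (-0.16 ± 0.15).

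Both mutants lay below both controls in 7 of the 10 members, and in 23.6% of all genes tested. How many members passed turned on which library was left out. Across fits that left out 1 sample, in all beta cells or in the Xist-marked beta cells described below, Atf4 ranged from -8.13 to -1.63 (log2). Atf5 ranged from -4.03 to -1.10, Trib3 from -5.29 to -1.37 and Nupr1 from -7.08 to -0.52. Chac1 ranged from -5.66 to -1.29 and Eif4ebp1 from -2.52 to -1.08, while Atf3 and Ddit3 changed sign. In these fits 1 group has a single sample, which is assumed to vary like the other group.

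**Figure D2:**
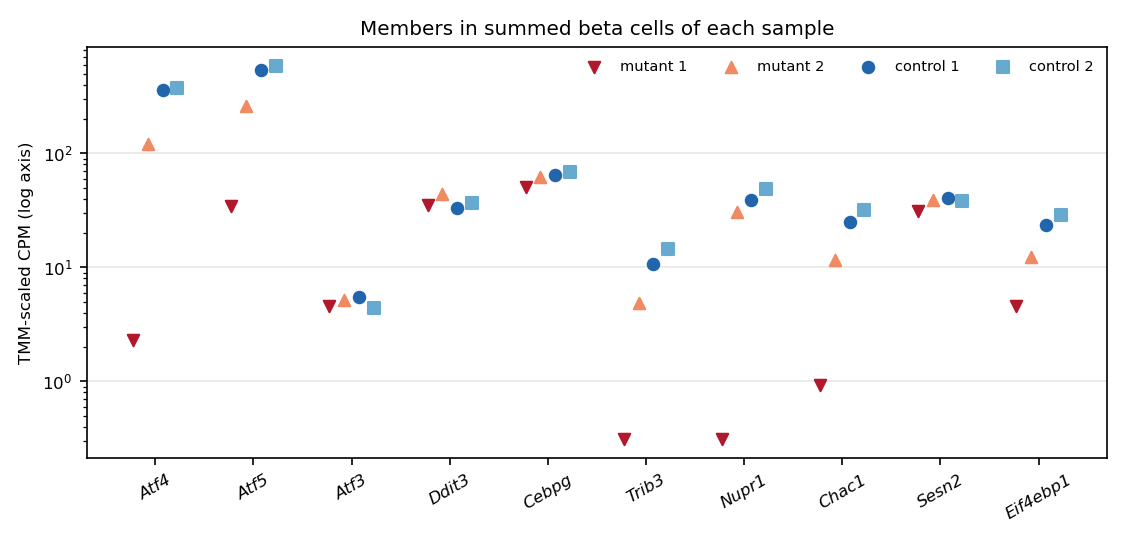
TMM-scaled CPM (log axis) of the 10 members in the summed beta cells of each sample, 1 symbol per sample. Mutant 1 is lowest and mutant 2 lies between it and the controls for Atf4, Atf5, Trib3, Nupr1, Chac1 and Eif4ebp1 and, over a narrow range (51.0 to 68.3 CPM), for Cebpg, while the groups overlap for Atf3, Ddit3 and Sesn2.

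The intermediate level of mutant 2 was not shared by all of its beta cells. Each pool held both sexes, so beta cells were separated by the X-inactivation RNA Xist and by Y-linked genes. In mutants 1 and 2 and controls 1 and 2, 208, 148, 206 and 154 beta cells had Xist without any Y-linked count (Xist-marked), and 185, 325, 294 and 265 had Y-linked counts without Xist. The other cells had both or neither. In the Xist-marked cells, Atf4 was low in both mutants, with 4 UMIs in mutant 1 and 17 in mutant 2, and Atf4, Atf5, Trib3, Nupr1, Chac1 and Eif4ebp1 passed the test.

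In the cells with Xist, Atf4 stood at 1.37 CPM in mutant 1, 7.98 in mutant 2, 350 in control 1 and 444 in control 2. The log2 change was -6.54 ± 0.39 (edgeR adjusted p 4.12e-05). Atf5 gave 34.5, 73.7, 473 and 599 CPM (-3.33 ± 0.29, edgeR adjusted p 0.000442). Groups were far apart for both.

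Of the response genes in these cells, Nupr1 fell from 26.0 and 60.6 CPM in the controls to 0.341 and 0.938 CPM, which are 1 and 2 UMIs (edgeR adjusted p 0.00201). Chac1 fell from 31.6 and 42.6 to 0.683 and 3.28 CPM (edgeR adjusted p 0.00123), Trib3 from 12.6 and 17.6 to 0.683 and 0.938 CPM (edgeR adjusted p 0.00383), and Eif4ebp1 from 24.2 and 31.5 to 5.80 and 7.51 CPM (edgeR adjusted p 0.00969). Atf3, Ddit3, Cebpg and Sesn2 did not pass, with log2 changes of -0.24 ± 0.43, -0.25 ± 0.33, -0.44 ± 0.17 and -0.23 ± 0.20. All 6 calls were lower in the mutants, where 0.583% of 10635 genes were called lower. The same 6 stayed lower in the mutants when any 1 of the 4 samples was left out.

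In the cells with Y-linked counts, mutant 1 again lacked Atf4, at 2.85 CPM, but mutant 2 held 192 CPM against 384 and 351 in the controls. None of the 10 passed edgeR's test there, where 0.112% of genes were called, and Eif4ebp1 and Ddit3 had an unadjusted p under 0.05 (0.0116, lower, and 0.0355, higher). Nupr1 was at 0.633 CPM in mutant 1 and at 47.9 in mutant 2, beside 58.7 and 50.4 in the controls. Atf5 was at 35.1, 390, 586 and 586 CPM. In mutant 2, the Y-linked beta cells thus lay near the controls in Nupr1 and between the groups in Atf5.

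A fit that kept the sample as a block compared the mutant effect between both kinds of beta cell, added after seeing the data. Atf4 was the one gene called among 11507 (0.00869%), with a mutant effect lower by 4.27 ± 0.47 on the log2 scale in cells with Xist (edgeR adjusted p 0.0175). The call was lost without mutant 2 (difference -1.13 ± 0.72, edgeR adjusted p 0.681) and without control 2 (-3.98 ± 0.63, edgeR adjusted p 0.329). Atf5, Trib3, Nupr1 and Chac1 had differences of -1.25 ± 0.50, -2.59 ± 0.96, -4.59 ± 0.87 and -2.63 ± 0.48 that did not pass adjustment (edgeR adjusted p 0.247 to 1.00). These turned on the sample left out. Without mutant 2 they were 0.13, 3.28, -0.43 and -1.01, and the Ddit3 difference was -1.54 ± 0.30. Without mutant 1 the same 4 were -2.26, -3.63, -5.24 and -2.92. The Nupr1 difference without control 1 was -5.23 ± 0.70. Which animals of the mutant 2 pool the cells came from was not tested.

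**Figure D3:**
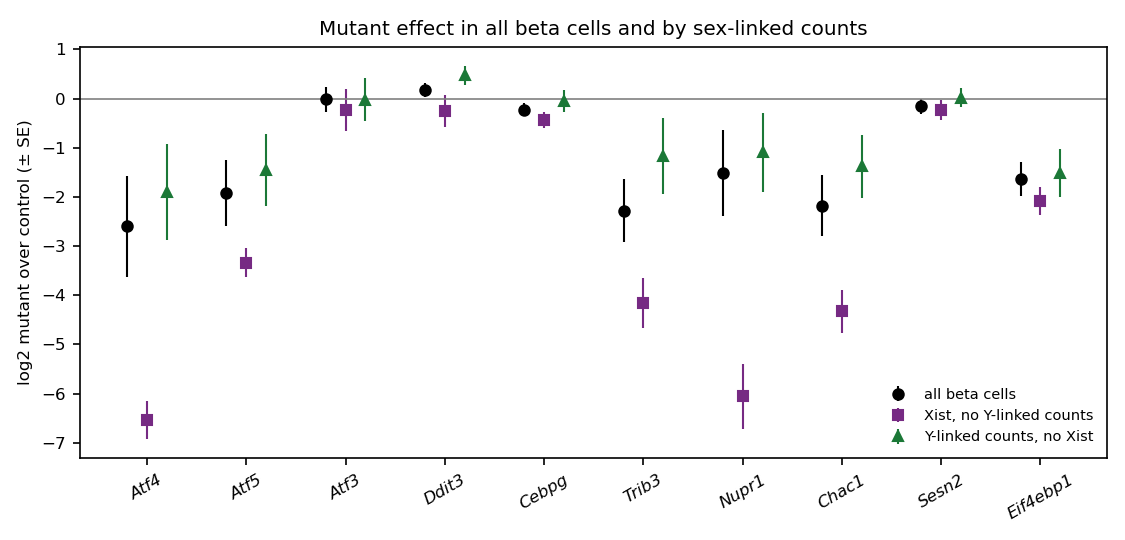
Log2 change of mutants against controls (± SE) for the 10 members in all beta cells, in beta cells marked by Xist alone, and in beta cells marked by Y-linked counts alone. For Atf4 the change is -6.54 in cells with Xist and -1.90 in cells with Y-linked counts, and for Atf3, Ddit3, Cebpg and Sesn2 the values lie between -0.44 and 0.47.

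Outside beta cells, to which Ins1Cre is not directed, Atf4 was present in all samples. In alpha cells it stood at 234 CPM in mutant 1, 265 in mutant 2, 398 in control 1 and 301 in control 2. Both mutants lay below both controls, as in 19.9% of all genes tested in alpha cells (log2 change -0.48 ± 0.16, edgeR p 0.00836, adjusted p 0.329). The alpha cells of mutant 1 thus kept an Atf4 level that its beta cells, at 2.29 CPM on their own scale, had lost. In the alpha fit 6 of the 10 members passed the filter on low counts and none the test, where 0.347% of genes were called. At an unadjusted p of 0.05, 1 was higher and 1 lower, beside 499 higher and 368 lower of all 8934 genes. DESeq2 and limma-voom called 0 members.

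The member higher in mutant alpha cells was Ddit3, with 64.6 and 37.1 CPM (64 and 44 UMIs) in mutants 1 and 2 against 25.7 and 14.8 CPM (21 and 13 UMIs) in controls 1 and 2. Both mutants lay above both controls, as they did in 19.9% of genes, and the log2 change was 1.32 ± 0.34 (edgeR p 0.000856, adjusted p 0.134). With 1 sample left out the Ddit3 change was 0.88 to 1.76. Atf3 gave 117 and 138 CPM against 190 and 126 CPM, overlapping (-0.30 ± 0.20), while other immediate early genes of alpha cells fell, as given below. Atf5 stayed at 23.2 and 25.3 CPM against 22.0 and 40.8 CPM.

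In delta cells 4 members passed the filter and in PP cells 2, and edgeR, DESeq2 and limma-voom called none of them (0.0221% and 0.083% of genes were called by edgeR, and 0 members had an unadjusted p under 0.05). Atf4 was at 188 and 122 CPM in mutant and 229 and 173 CPM in control delta cells. In PP cells it was at 234 and 335 CPM against 384 and 356 CPM.

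The test of the beta effect against the alpha effect had the sample as a block and called 0.222% of genes and 0 of the 10 members. DESeq2 and limma-voom called 0 as well. At an unadjusted edgeR p under 0.05, 5 members were lower, beside 512 lower and 430 higher of all 13493 genes. The Atf4 effect was lower in beta cells by 2.82 ± 0.69 on the log2 scale (edgeR adjusted p 0.133), and Eif4ebp1 by 2.25 ± 0.57 (edgeR adjusted p 0.162). The Atf4 difference was -6.73 without mutant 2 and -1.23 without mutant 1. With all 4 samples Atf4 was called with library totals as scaling, with no filter on low counts, with Leiden classes and with stricter hormone limits. Nupr1 and Trib3 had too few alpha cell counts for their differences to be read.

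The wider pathway in beta cells was described by lists of its other genes. Of all 13431 genes tested there, edgeR called 70 higher and 29 lower. At an unadjusted p of 0.05, 948 of them were higher and 930 lower. Of 20 tested eIF2 kinases and their controllers 0 passed edgeR's test (4 higher and 2 lower at an unadjusted p of 0.05), with a median log2 change of 0.06 beside 0.00 for all genes. Ppp1r15b, a phosphatase subunit that removes the stress mark from eIF2 alpha, had the smallest p, with 24.7 and 26.9 CPM in mutants against 36.3 and 39.6 in controls (-0.56 ± 0.13, edgeR adjusted p 0.122). Its inducible counterpart Ppp1r15a (-0.40 ± 0.15), the kinase PERK gene Eif2ak3 (0.35 ± 0.13) and the kinase inhibitor gene Dnajc3 (0.34 ± 0.13) did not pass either.

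Other known Atf4 targets leaned downward, 38 of 45 tested having a negative log2 change (50.0% of all genes did) and a median of -0.42. This list, like the others, was chosen with earlier results of these data known, so the lean is a description only. One fell, the alanyl-tRNA synthetase gene Aars, from 97.2 and 101 CPM in the controls to 37.1 and 57.7 CPM (-1.07 ± 0.19, edgeR adjusted p 0.0488). At an unadjusted p of 0.05, 25 were lower and 2 higher, beside 930 lower and 948 higher of all 13431 genes. Asns, the asparagine synthetase gene, stood at 32.2 and 58.1 CPM against 97.4 and 101 CPM (-1.14 ± 0.23, edgeR adjusted p 0.0726). Sars, for seryl-tRNA synthetase (-0.93 ± 0.17), and Psph, for the last step of serine synthesis (-1.07 ± 0.22), lay close to the threshold as well. In each of these 4 genes both mutants were below both controls.

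Of 20 genes of mTORC1 and amino acid sensing, 1 rose and 0 fell (0.737% of all genes were called). It was Ddit4l, an inhibitor of mTORC1 signalling, with 16.8 and 9.02 CPM in the mutants against 0.681 and 0.625 CPM in the controls (4.28 ± 0.41, edgeR adjusted p 0.00365). Eif4ebp2, the paralog of Eif4ebp1, leaned the other way from it, at 32.0 and 30.4 CPM against 17.3 and 19.3 (0.77 ± 0.14, edgeR adjusted p 0.0570). The ribosomal protein gene Rps6 gave -0.37 ± 0.11.

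Of 23 bZIP and C/EBP partners 1 fell, Junb (-0.90 ± 0.15, edgeR adjusted p 0.0455), with 141 and 127 CPM in the mutants against 217 and 282 in the controls. Fosb (-0.78 ± 0.17), Fos (-0.46 ± 0.12) and Nfe2l2, the antioxidant factor Nrf2 (0.63 ± 0.16), did not pass. Junb is also an immediate early gene, and of 14 such genes 3 fell in beta cells: Socs3 (-1.34 ± 0.22), Junb and Ier2 (-0.82 ± 0.14). Of all genes tested in beta cells 0.216% fell. Nr4a1 gave 0.81 ± 0.17 and did not pass. In alpha cells 7 of the 14 fell, where edgeR called 0.347% of 8934 genes and 11 genes fell. Immediate early genes respond to tissue dissociation, and the part of handling in the Atf3 and Ddit3 values was not tested.

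Over single control beta cells Atf5 had a higher r than Atf4 had, in both controls, with Cebpg, Trib3, Nupr1, Chac1, Sesn2 and Eif4ebp1. Cells above 8000 UMIs were thinned to 8000 and correlated within each control, 505 cells in control 1 and 512 in control 2. These r values are descriptions over cells of 1 library. Atf4 had r = 0.16 and 0.11 with Atf5, 0.08 and 0.12 with Nupr1, 0.13 and 0.07 with Trib3, 0.05 and 0.18 with Chac1 and 0.03 and 0.02 with Eif4ebp1. The Atf4 values moved with the thinning: in cells above 5000 UMIs thinned to 5000, r with Nupr1 was 0.0035 and 0.085 (rank 1819 of 4875 genes by the lower r). Without thinning, r was 0.15 and 0.20 with Trib3 (rank 7 of 9000) and 0.10 and 0.11 with Eif4ebp1. Atf5 had r = 0.31 and 0.32 with Nupr1, 0.19 and 0.28 with Chac1, 0.19 and 0.22 with Trib3 and 0.16 and 0.26 with Eif4ebp1. Atf3 and Ddit3 had r of at most 0.08 with both. Atf4 had a mean of 2.80 and 2.89 thinned UMIs per cell, and Atf5 of 4.03 and 4.57. The variance over the mean was 1.03 and 1.45 for Atf4 and 3.00 and 3.68 for Atf5. Counting error alone gives a value near 1. Atf4 counts thus varied little beyond counting error in control 1 and more in control 2. A value near 1 did not keep every r near 0: Eif4ebp1 had 1.02 in control 1 and r = 0.16 with Atf5 there. The part of counting error in the lower r of Atf4 was not tested. That lower r is therefore not read as a weaker tie to these genes than that of Atf5.

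The genes most like Atf4 over cells were weakly so, led by the metallothionein gene Mt1 (r = 0.15 and 0.18), then Ssr4, Mt2, Enpp5, Atf5, Hadh, Rps24, Rimklb, Nars and Rps28. The lower r of the 2 controls was 0.11 for Atf5, rank 5 of 6694 genes, beside a median of -0.01 and a 99th percentile of 0.08. Atf5 was most like the ferritin light chain gene Ftl1 (0.41 and 0.47), the lysosomal and exosome protein gene Cd63 (0.36 and 0.45), Nupr1, Mt1 (0.30 and 0.42) and Asns (0.28 and 0.30). Nupr1 was most like Atf5, Mt1, Ftl1, Cd63 and Mt2.

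Chac1 was most like Asns (0.25 and 0.23), then Atf5, Mt1, Rpl10 and Rpl10-ps3. Eif4ebp1 was most like Atf5, Iapp, Eno1, Zdhhc3 and Rpl10-ps3, Cebpg like Atf5, Nupr1, Zdhhc2, Mt1 and Fads6, and Sesn2 like Chac1, Git1, Ftl1, Eif4ebp1 and Atf5. The genes most like Ddit3 were Dock9, Otulin, Ywhab, Reep6 and Eif3a, with r of at most 0.15. Trib3 and Atf3 had a thinned UMI in under 10% of cells and were not ranked.

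**Figure D4:**
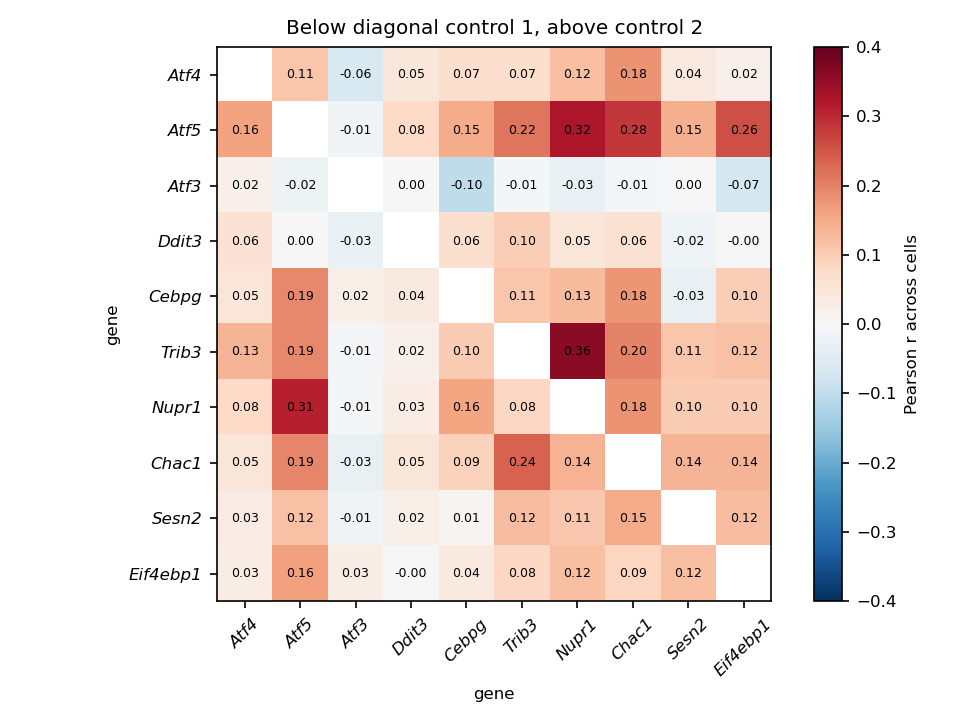
Pearson r between pairs of members across beta cells above 8000 UMIs, thinned to 8000, with control 1 (505 cells) below and control 2 (512 cells) above the diagonal. The Atf5 row and column hold r up to 0.31 and 0.32, with Nupr1, and the Atf3 values lie between -0.10 and 0.03.

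Within mutant 2 Atf4 had a higher r with Atf5 and Nupr1 than in the controls. Atf5 stepped up between mutant 2 cells without and with Atf4 UMIs, and those with Atf4 UMIs held Atf5 near the control levels given below. Over the 449 deep beta cells of mutant 2, Atf4 and Atf5 had r = 0.54, and Atf4 and Nupr1 r = 0.28. In the 390 cells of mutant 1 these values were 0.08 and -0.01. In mutant 2, the 260 cells with no thinned Atf4 UMI held Atf5 at 106 UMIs per 1000000 (exact Poisson 95% interval 92.7 to 121, counting error only). The 117 cells with 1 to 2 Atf4 UMIs held 444 (403 to 489), and the 64 cells with 3 to 5 held 537 (475 to 604).

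In the controls the first steps overlapped. Cells with no Atf4 UMI held Atf5 at 421 (349 to 505) in 35 cells of control 1 and at 522 (458 to 593) in 57 cells of control 2. Cells with 1 to 2 Atf4 UMIs held 449 (417 to 483) and 518 (481 to 556), and those with 3 to 5 held 509 (477 to 542) and 569 (534 to 605). Cells with 6 or more held 868 (760 to 986) and 806 (723 to 895), and the 8 such cells of mutant 2 held 844 (634 to 1101). Chac1 and Nupr1 followed in mutant 2, with 3.85 (1.66 to 7.58) and 7.69 (4.40 to 12.5) per 1000000 in cells without an Atf4 UMI and 27.8 (18.1 to 40.7) and 47.0 (34.2 to 63.1) in cells with 1 to 2. Of the mutant 2 cells without an Atf4 UMI 37.3% were Xist-marked, and of those with 1 to 2, 3.42%.

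**Figure D5:**
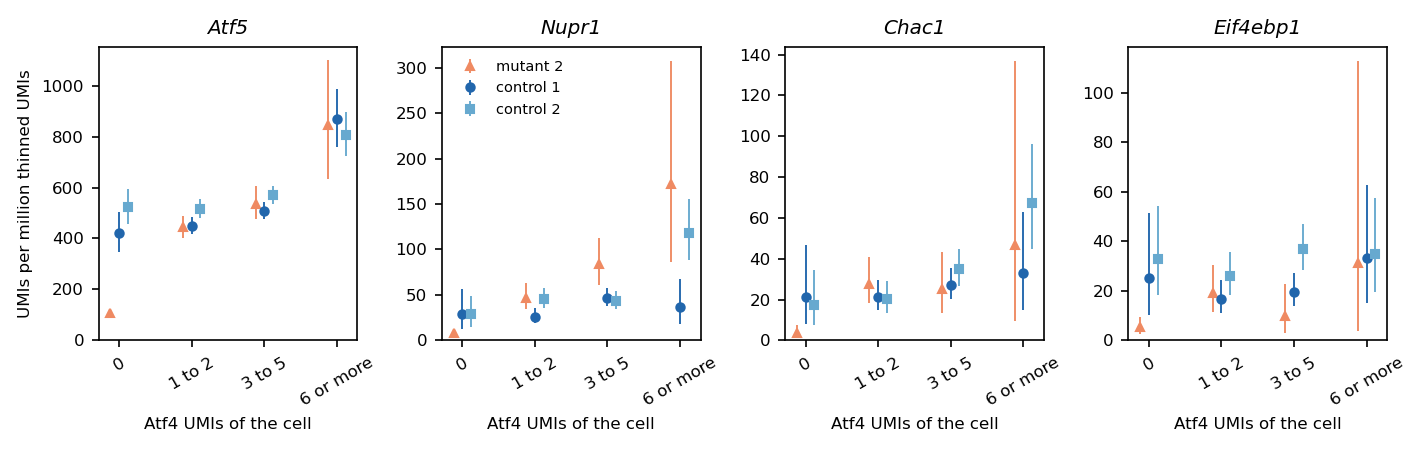
UMIs per 1000000 thinned UMIs of Atf5, Nupr1, Chac1 and Eif4ebp1 in deep beta cells grouped by the cell's thinned Atf4 UMIs, in mutant 2 and both controls, with exact Poisson 95% intervals. In mutant 2, Atf5 is at 106 in cells with 0 Atf4 UMIs and at 444 in cells with 1 to 2, and in the controls it is at 421 and 522 in cells with 0.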

How the data were processed

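The authors deposited UMI counts per gene and barcode as 1 matrix per sample, and per the submitters' processing notes the tool was Seurat (version not named) and the build mm10. Counting was not repeated. Barcodes passed with 500 or more genes and less than 20% mitochondrial counts. Beta cells had at least 10% insulin counts and under 0.5% of other hormones, other endocrine classes at least 3% glucagon, 3% somatostatin or 1% pancreatic polypeptide, under 5% insulin and 3 times more of their own hormone than of any other. These limits were set after the hormone counts were seen. Scrublet marked 28 cells (0.4%), too few for a working caller, and the guard against doublets was the exclusion of mixed-hormone cells. The 10% of added human K562 cells were not identified here, since mouse genes alone were read.

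Counts were summed per sample and class (8829651 to 11346980 UMIs in beta, 840749 to 1193252 in alpha cells) and tested with edgeR 4.0.16 in R 4.3.3 (quasi-likelihood F test, filterByExpr, TMM, Benjamini-Hochberg over all tested genes). Named genes were the 10 members, up to 4 of each further list by lowest p in beta cells, the 5 genes most like Atf4 over class sums, and over cells the 10 most like Atf4 and 5 for each member seen in at least 10% of cells. The members and lists were chosen with earlier results of these data known. With 2 pools a group, p-values rest on the spread among pools, which edgeR draws for each gene towards that of other genes. The weight of the other genes was 6.84 prior degrees of freedom in beta cells and 18.2 in alpha cells. Replicates of a group differed beyond sampling noise (chi-square per degree of freedom 9.18 and 11.1). Scaling, filters, tool, class rule, block and left-out samples were varied with DESeq2 1.42.0 and limma 3.58.1 (voom). The fit was tested on simulated data. Cell-level values used Python 3.11.15, numpy 2.4.6 and scipy 1.17.1.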

Additional observations from a re-analysis of the deposited data

Results flagged for a closer look

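The mutant effect on Atf4 differed between beta cells with Xist and beta cells with Y-linked counts, by -4.27 on the log2 scale, in a test of that difference over 8 sums with the sample as a block (edgeR adjusted p 0.0175). In mutant 1 both kinds of cell had Atf4 near 0, and in mutant 2 the cells with Y-linked counts held 192 CPM. The call was lost without mutant 2 (difference -1.13) and without control 2 (-3.98). This test was added after seeing the data.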

How the results depend on the processing

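The direction of Atf4, Atf5, Trib3, Nupr1, Chac1 and Eif4ebp1 in beta cells was lower in mutants under every alternative run, and what changed was whether they passed. Main counts of called genes were 99 in beta, 31 in alpha, 1 in delta and 2 in PP cells and 30 for the beta against alpha difference. With library totals as scaling they were 158 in beta and 14 in alpha cells and 46 for the difference, and with totals without hormones 2 in delta cells. DESeq2 called 218, 15 and 7 (beta, alpha, difference), and limma-voom 1 in PP cells. With no filter they were 30, 101, 36 and 21 in beta, alpha, delta and PP cells and 102 for the difference. The stricter cell filter gave 64 in beta and 4 in PP cells, Leiden classes 30 in beta and 4 in delta cells, stricter hormone limits 47, 11 and 1 in alpha, delta and PP cells and 72 for the difference, and the Scrublet filter 11 in alpha cells. Beta cells above 8000 UMIs gave 48 and those with Y-linked counts 13. In cells with Xist, leaving out 1 sample gave 57, 169, 350 or 424. Leaving out 1 sample of all beta cells gave 84 to 301, with 4 to 89 in alpha, 4 to 26 in delta and 2 to 17 in PP cells and 18 to 102 for the difference. Class levels gave 7377 calls in controls and 11182 in all 4 samples, and the median lower r of Atf4 with the members was 0.047, and 0.081 without thinning.

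With the replicate number as a block the counts were 165, 104, 12 and 11 in beta, alpha, delta and PP cells, and Atf5, Trib3, Chac1 and Eif4ebp1 were called in beta cells and Ddit3 in alpha cells. With the group in the library names as the block, 89 genes and 0 members were called in beta cells. Same-numbered samples did not deviate together (r = -0.06), so the numbers are not taken as pairs.

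Signs turned for values near 0 and for some far from it, the Trib3 and Nupr1 differences and the Atf4 class levels. In beta cells Atf3 was 0.11 and 0.028 with total scalings, 0.0083 with Leiden classes, 0.0039 above 8000 UMIs and -0.18 to 0.16 with a sample left out, and 0.015 in cells with Xist without control 2. Ddit3 was -0.010 to 0.33 with a sample left out, -0.25 in cells with Xist and -0.94, -0.38 and -0.11 in these without mutant 2, control 1 or control 2, and Sesn2 0.016 in cells with Y-linked counts. With a sample left out, alpha cell values were -0.56 to 0.026 (Atf3), -0.74 to 0.15 (Atf5), -0.087 to 0.33 (Cebpg) and -0.35 to 0.24 (Sesn2), delta cell values -0.26 to 0.15 (Atf5) and -1.12 to 0.45 (Cebpg), and Atf3 in PP cells -0.53 to 0.24. Cebpg in delta cells was 0.17 with Leiden classes. In the difference, Sesn2 was 0.029 with library totals and -0.35 to 0.16 with a sample left out, Nupr1 -0.30 in DESeq2, -0.96 in limma-voom and -0.99 to 5.53, and Trib3 2.57 with stricter hormone limits and -6.58 to 3.15. With library totals PP minus beta was 0.10 for Atf4 and 0.12 for Sesn2, and endothelial minus beta 0.35 for Atf4. In the mutants, where beta cell Atf4 was almost absent in mutant 1 and reduced in mutant 2, its alpha, delta, PP and endothelial differences from beta cells were 2.30, 1.36, 2.46 and 2.51, and Sesn2 in PP cells 0.0080. Over all 4 samples the Atf4 values were 0.68, 0.65 and 0.76 in alpha, PP and endothelial cells. The causes were not tested. Depth limits Trib3, Nupr1 and Chac1 outside beta cells, where few UMIs were counted.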
